A study of Mus musculus with 2 samples.

Results

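The 4 transcriptional regulators listed here as known to drive IL-17 target genes were followed by bulk RNA sequencing in mouse skin fibroblasts. They are Nfkbiz, which encodes IkB-zeta, and Cebpb, Cebpd and Cebpg, which encode C/EBP-beta, C/EBP-delta and C/EBP-gamma. They were chosen by gene symbol, and all 4 were found among the 19674 rows of the count table. The cells were wild-type fibroblasts of the line that the labels call MDFB, from skin, given IL-17A (1 library) or vehicle (1 library). Both libraries were treated here as 1 batch, and the labels give neither the dose nor the duration of treatment. The data describe 1 cell line, and with 1 library per group no difference has a replicate check or a p-value.

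IL-17A binds a receptor built from Il17ra and Il17rc, which recruits the adaptor Traf3ip2 (Act1) and switches on NF-kB, C/EBP factors and pathways that stabilise mRNA. IkB-zeta is an inducible nuclear member of the IkB family that works with the NF-kB subunit encoded by Nfkb1 as a co-activator at a subset of inflammatory genes, and in skin it is best known from keratinocytes in psoriasis-like inflammation. C/EBP proteins bind DNA as dimers through a basic leucine zipper (bZIP). C/EBP-beta and C/EBP-delta activate cytokine and acute-phase genes, while C/EBP-gamma is a short family member without a strong activation domain that pairs with other bZIP proteins such as ATF4.

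In GRCm38 (mm10), GENCODE places Nfkbiz on the minus strand of chromosome 16 at 55811375 to 55838899, with 14 exons in its coding transcript. Cebpd lies on the plus strand of the same chromosome at 15887286 to 15891031, Cebpb on the plus strand of chromosome 2 at 167688915 to 167690418, and Cebpg on the minus strand of chromosome 7 at 35046422 to 35056573. Cebpb and Cebpd have a single exon and Cebpg has 2. The coding sequences span 728 codons for Nfkbiz, 296 for Cebpb, 268 for Cebpd and 150 for Cebpg.

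The 300-base promoter windows are shown for the 2 genes matched in the RefSeq promoter table of GRCm38.p6, Cebpb and Cebpg, since these differed in the comparison below. Each runs from 250 bases before the annotated start to 50 after it, on the strand of the gene. Capitals mark matches, on either strand, to any of the 7 motifs searched.
Cebpb, chr2:167688665-167688964, plus strand: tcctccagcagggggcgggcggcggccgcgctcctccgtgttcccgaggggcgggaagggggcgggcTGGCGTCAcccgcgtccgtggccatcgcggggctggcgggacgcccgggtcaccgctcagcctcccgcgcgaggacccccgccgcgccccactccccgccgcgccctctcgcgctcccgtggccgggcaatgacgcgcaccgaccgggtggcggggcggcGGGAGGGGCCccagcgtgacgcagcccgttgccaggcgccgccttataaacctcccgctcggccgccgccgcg
Cebpg, chr7:35056517-35056816, minus strand: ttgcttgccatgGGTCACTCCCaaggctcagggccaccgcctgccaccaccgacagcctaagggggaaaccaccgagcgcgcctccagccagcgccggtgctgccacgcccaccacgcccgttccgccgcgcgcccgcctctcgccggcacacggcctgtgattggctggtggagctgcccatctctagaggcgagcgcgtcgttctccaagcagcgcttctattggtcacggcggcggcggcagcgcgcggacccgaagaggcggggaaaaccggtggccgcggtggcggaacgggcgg

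The Cebpb window held 1 match to the kappaB motif, here GGGA and CC with any 4 bases between them, 23 bases before the start, and 1 match to TGACGNNA, part of the cyclic AMP response element, on the antisense strand, 183 bases before the start. The Cebpg window held 1 match to the same kappaB motif on the antisense strand, 238 bases before the start. Of the 32851 windows in the table, 20.7% held this kappaB motif and 6.61% held TGACGNNA, so a kappaB match is common. The other kappaB form, GGG and TTCC with any 3 bases between them, the C/EBP motif TTGCNNAA, the STAT motif TTCNNNGAA, the AP-1 motif TGANTCA and the C/EBP-ATF motif TGATGNAA had no match in either window. They were found in 5.56%, 10.8%, 8.30%, 7.81% and 3.97% of all windows. The 2 kappaB forms can match the same bases. Both windows were rich in G and C, at 80.7% for Cebpb and 71.7% for Cebpg, against a median of 52.7% over all windows.

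Cebpb makes several proteins from 1 mRNA by starting translation at different in-frame codons. The activators LAP* and LAP start at codons 1 and 22, and the short inhibitory form LIP, which lacks the activation domain, starts at codon 152. The starts are shown, with the start codon in capitals, because a count per gene sums all of these forms. They were looked up after the counts had been read.
LAP* start: ATGcaccgcctgctg
LAP start: tttagacccATGgaagtggccaac
LIP start: gcgcccgccATGgcggccggtttc

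Counts summed to 23559416 in the IL-17A library and 24427027 in the vehicle library, and 13534 genes with at least 50 counts over both libraries are called measured. Levels are CPM values, the counts divided by the TMM-scaled size of the library. A ratio is IL-17A over vehicle with an exact 95% interval that covers counting error only, since the labels mention no molecular identifiers to mark PCR copies and variation between cultures was not sampled. A gene is called higher or lower at 2-fold, a rule of size. Over all measured genes 5.19% were called higher and 3.69% lower, and the median log2 ratio was 0.00. These shares are the background for each count of called genes in a list below. Fibroblast markers were abundant in both libraries, summing to 42932 CPM with IL-17A and 57728 CPM with vehicle over 10 of 10 genes, led by the collagen Col1a1. Of these 10, 1 was called, the matrix proteoglycan gene Dcn, which had 96320 counts with IL-17A and 17022 with vehicle and was 6.15-fold higher (interval 6.05 to 6.25). All counts are from bulk RNA, in which a change in the number of cells of a kind and a change in RNA per cell cannot be told apart.

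Of the 4 regulators, 3 were higher with IL-17A and Cebpg was nearly level. Cebpd differed most, followed by Nfkbiz and Cebpb, and 1 of the 4, Cebpd, was called higher at 2-fold, beside 5.19% of all measured genes, while 0 were called lower, beside 3.69%. At 1.5-fold, 3 of the 4 were higher, beside 10.1% of all measured genes, and 0 were lower, beside 8.25%.

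**Figure D1:**
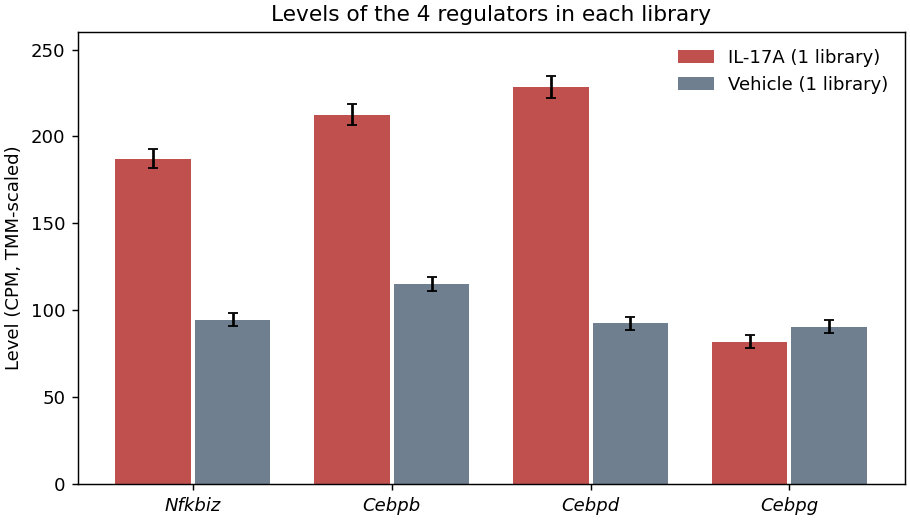
Levels of the regulators in CPM (y axis, from 0) in the IL-17A library and the vehicle library, as bars with exact 95% Poisson intervals of the counts. Nfkbiz, Cebpb and Cebpd stand between 187 and 229 CPM with IL-17A and between 92.4 and 115 CPM with vehicle, while Cebpg stands at 81.9 and 90.4 CPM.

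Nfkbiz had 4306 counts with IL-17A and 2366 with vehicle, or 187 and 94.6 CPM. Its ratio was 1.98-fold (95% counting interval 1.88 to 2.08), so the interval spanned the 2-fold limit. On the log2 scale it was 0.98 (interval 0.91 to 1.06), and it ranked 713 of 13534 measured genes, at percentile 94.7. Its mean level lay at percentile 89.5 of measured genes.

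Cebpb had 4892 counts with IL-17A and 2879 with vehicle, or 213 and 115 CPM. The ratio was 1.85-fold (interval 1.76 to 1.93), inside the 2-fold limit, at percentile 93.9. Cebpb was the most abundant of the regulators with vehicle also when levels were set per kilobase of exon.

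Cebpd had 5259 counts with IL-17A and 2312 with vehicle, or 229 and 92.4 CPM. The ratio was 2.47-fold (interval 2.35 to 2.60), the whole interval lying past 2-fold, at percentile 96.5 of the measured genes. Under total-count, upper-quartile and DESeq2 scaling its log2 ratio was 1.24, 1.27 and 1.30, past the limit each time.

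Cebpg had 1885 counts with IL-17A and 2262 with vehicle, or 81.9 and 90.4 CPM. The log2 ratio was -0.14 (interval -0.23 to -0.05) and stood at percentile 30.7 of measured genes. The counting interval excluded 0 narrowly, and without replicates a difference of this size cannot be told from variation between cultures.

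Ratios of one regulator to another within a library need no scaling between libraries, and all 6 pairs were compared this way. Relative to Cebpg, Cebpd was 2.73-fold higher with IL-17A than with vehicle (interval 2.52 to 2.95), Nfkbiz 2.18-fold (interval 2.02 to 2.37) and Cebpb 2.04-fold (interval 1.89 to 2.20). Relative to Cebpb, Cebpd was 1.34-fold higher (interval 1.25 to 1.43) and Nfkbiz 1.07-fold (interval 1.00 to 1.15, just including 1). Relative to Nfkbiz, Cebpd was 1.25-fold higher (interval 1.16 to 1.34). The amounts by which Nfkbiz and Cebpb moved were therefore not separated beyond counting error, though only just, and Cebpd stood apart from both.

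Cebpb and Cebpd each share exon bases with a gene on the opposite strand, and the strand setting of the counting is not given in the sources used here. Tmem189 overlaps 312 of the 1504 exon bases of Cebpb, and it had 1289 counts with IL-17A and 1077 with vehicle, a log2 ratio of 0.38. Spidr overlaps 562 of the 3746 exon bases of Cebpd, and it had 1003 and 848 counts, a log2 ratio of 0.36. Cebpg shares 73 of its 5621 exon bases with a predicted gene on the same strand, which had 0 counts with IL-17A and 4 with vehicle. It shares 4 bases with another on the opposite strand. If strand was not used, reads from the opposite-strand stretches cannot be assigned. Reads from the same-strand stretch cannot be assigned under either setting. The part of these stretches in the ratios was not tested.

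**Figure D2:**
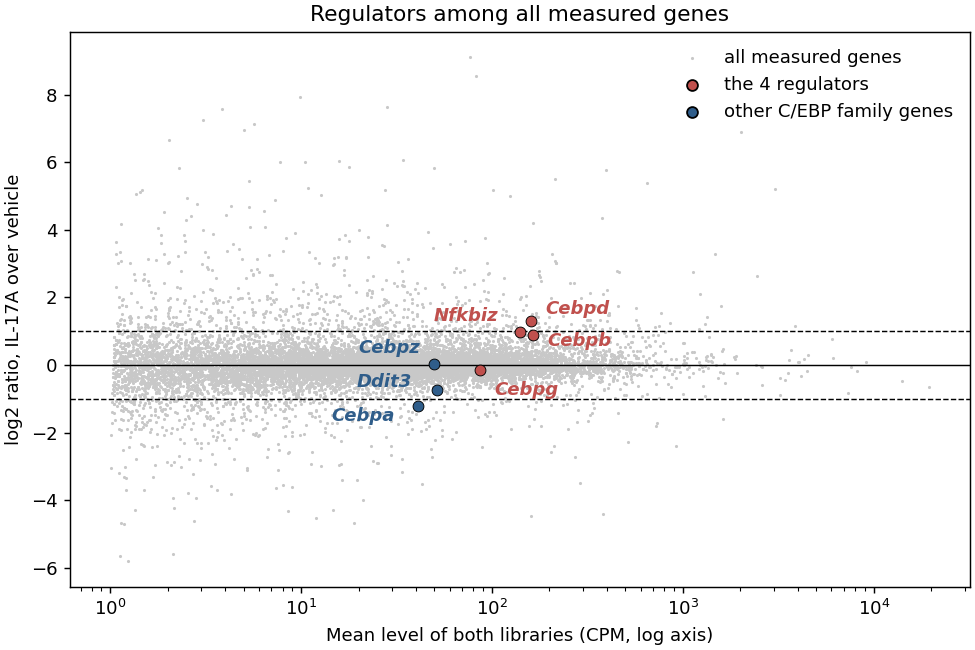
The log2 ratio of IL-17A over vehicle (y axis) against the mean level of both libraries in CPM (x axis, log scale) for each measured gene, with the 4 regulators and 3 other C/EBP family genes marked and dashed lines at 2-fold. Cebpd lies above the upper line, Nfkbiz and Cebpb just under it, Cebpg near 0 and Cebpa below the lower line.

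The other C/EBP family genes were lower or level with IL-17A. Cebpa, the family member that drives terminal adipocyte differentiation, had 566 counts with IL-17A and 1436 with vehicle, and was 2.33-fold lower (interval 2.12 to 2.58). Ddit3, which encodes CHOP, a stress-induced partner that blocks classical C/EBP binding, had 878 counts with IL-17A and 1609 with vehicle, a log2 ratio of -0.75 (interval -0.87 to -0.63). Cebpz, named with the family but without the leucine zipper, was level at 1161 and 1231 counts, a log2 ratio of 0.04. Cebpa and Cebpg are neighbours on chromosome 7, where Cebpa lies at 35119293 to 35121928, and they differed in ratio.

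To compare genes with each other, levels were divided by the exon length in GENCODE, giving RPKM, which is CPM per kilobase. In the IL-17A library the order was Cebpb at 141 RPKM (exact 95% Poisson interval 137 to 145), Cebpd at 61.0 (59.4 to 62.7), Nfkbiz at 37.3 (36.2 to 38.4), Ddit3 at 22.3 (20.8 to 23.8), Cebpg at 14.6 (13.9 to 15.2) and Cebpa at 9.33 RPKM (8.58 to 10.1). In the vehicle library it was Cebpb at 76.5 RPKM (73.8 to 79.4), Ddit3 at 37.6 (35.7 to 39.4), Cebpd at 24.7 (23.7 to 25.7), Cebpa at 21.8 (20.7 to 22.9), Nfkbiz at 18.9 (18.1 to 19.6) and Cebpg at 16.1 RPKM (15.4 to 16.8). Cebpz was left out of the order. No neighbours in either order had overlapping counting intervals, but the vehicle order below Cebpb depended on the length used. With the length of the longest transcript Nfkbiz, at 23.0 RPKM, passed Cebpa at 21.9, and with the RefSeq span of 2260 bases for Cebpd in place of 3746 that gene, at 40.9 RPKM, passed Ddit3.

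The makeup of the family differed accordingly. Of the summed RPKM of Cebpa, Cebpb, Cebpd, Cebpg and Ddit3, Cebpb made up 56.9% with IL-17A and 43.3% with vehicle, and Cebpd 24.5% and 14.0%. Cebpg took 5.86% with IL-17A and 9.11% with vehicle, Cebpa 3.75% and 12.3%, and Ddit3 8.96% and 21.3%. The summed level itself was 249 RPKM with IL-17A and 177 RPKM with vehicle. Longest-transcript or RefSeq lengths, or leaving out Ddit3, moved the shares but kept Cebpb and Cebpd at a higher share with IL-17A and Cebpa and Cebpg at a lower one. Cebpe, the granulocyte member, was not found in the count table, and shares of mRNA say nothing of which protein forms or dimers were present.

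**Figure D3:**
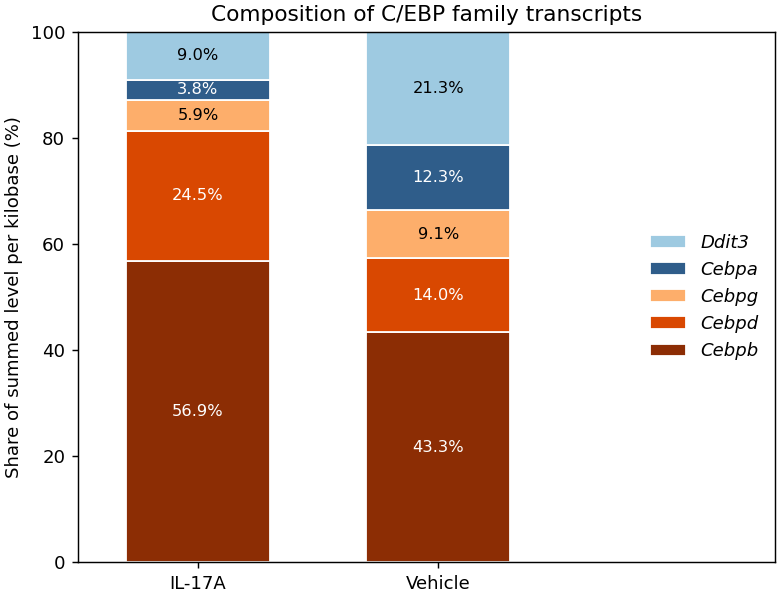
Share of each gene (y axis, percent) in the summed level per kilobase of 5 C/EBP family genes in the IL-17A library and the vehicle library. Cebpb and Cebpd together fill most of the IL-17A bar at 56.9% and 24.5%, against 43.3% and 14.0% with vehicle, where Ddit3 and Cebpa take 21.3% and 12.3%.

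Within its own family of IkB proteins and their NF-kB partners, Nfkbiz had a middling ratio. Of 10 listed genes, all measured, 5 were called higher and 0 lower, with a median log2 ratio of 0.99 beside 0.98 for Nfkbiz. Nfkbie and Nfkbia, cytoplasmic inhibitors that NF-kB itself induces, were 11.5-fold (interval 9.47 to 14.2) and 6.07-fold (interval 5.71 to 6.45) higher. Relb and Nfkb2, the subunits of the alternative pathway, were 2.94-fold (interval 2.73 to 3.18) and 2.91-fold (interval 2.77 to 3.06) higher. The other nuclear IkB genes, chosen after their values were seen, had lower ratios than Nfkbiz, Bcl3 at a log2 ratio of 0.46 (interval 0.36 to 0.56) and Nfkbid, with 54 counts in each library, at 0.12 (interval -0.45 to 0.69). Nfkb1, the partner through which IkB-zeta meets DNA and likewise chosen afterwards, was the fifth gene called higher, with 5985 counts with IL-17A and 3204 with vehicle, a log2 ratio of 1.02 (interval 0.96 to 1.08). The interval spans the 2-fold limit, and 4 genes of the list were called under total-count and upper-quartile scaling.

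In both lists of inflammatory targets of IkB-zeta and the C/EBP factors, most measured genes had higher ratios than the regulators. The exceptions, named after their values were seen, were Edn1, at a log2 ratio of 0.77 (interval 0.40 to 1.15), and Cd14, at 0.96 (interval 0.71 to 1.22). Of 24 listed IkB-zeta target genes, 16 were measured, 15 were called higher and 0 lower, with a median log2 ratio of 3.37. The minimum of 50 counts is summed over both libraries, so genes such as Cxcl2 and Csf2 passed it only through the IL-17A library. For Cxcl2 and Csf2 the filter fixed the call. Csf3, Ccl20, with 200 counts with IL-17A and 20 with vehicle, and Slpi, with 178 and 40, also passed only through that library. The lists were also chosen with earlier results of these data known, so these counts are a description. Cxcl2, a neutrophil chemokine, had 1286 counts with IL-17A and 7 with vehicle, Csf2, a myeloid growth factor, had 93 and 1, and Csf3, which drives granulocyte production, had 1553 and 25. Lcn2, an iron-carrier binding antimicrobial protein and a textbook joint target of IkB-zeta and C/EBP, had 17987 counts with IL-17A and 362 with vehicle, 54.0-fold (interval 48.7 to 60.1) higher.

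Of 24 listed C/EBP target genes of inflammation, 17 were measured, 16 were called higher and 0 lower, with a median log2 ratio of 3.67. Nos2, an enzyme that makes nitric oxide in inflammation, had 451 counts with IL-17A and 2 with vehicle, and the complement factor Cfb had 474 and 8. Nos2 and Cfb likewise passed the minimum only through the IL-17A library, as did Csf3 and Tnf, the latter with 59 and 11 counts. Pgf, with 39 counts with IL-17A and 13 with vehicle, passed it only by the sum. For Nos2, Cfb, Tnf and Pgf the filter fixed the call. The target lists share 9 genes, 37.5% of each, so their counts are not independent. Summed over all listed genes, the IkB-zeta targets reached 13591 CPM with IL-17A and 1077 CPM with vehicle, while the regulators themselves each stayed within 2.60-fold by their intervals. A few abundant genes carried these sums, with Saa3 at 5902 and 159 CPM, Cxcl5 at 2686 and 274, and Ccl2 at 1965 and 294.

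The C/EBP target genes of adipocyte formation had log2 ratios below 0 with 1 exception among those measured. Of 8 measured among 12 listed, 3 were called lower, of which 1 is Cebpa itself, and 1 was called higher, Fabp4, chosen after its value was seen, at a log2 ratio of 1.03 (interval 0.76 to 1.30) and not under total-count or upper-quartile scaling, with a median log2 ratio of -0.71. Pparg, the nuclear receptor that commits cells to the adipocyte lineage and is induced by C/EBP-beta and C/EBP-delta in adipogenesis, had 47 counts with IL-17A and 285 with vehicle, and was 5.58-fold lower (interval 4.09 to 7.77). Adipocytes themselves were barely represented, with Adipoq, the most abundant of their 4 markers, at 9 and 20 counts, and Lep at 0 in both libraries.

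C/EBP-gamma is known with ATF4 as a regulator of amino acid and redox genes, and these stood mostly a little lower. Of 23 measured among 24 listed, 0 were called higher and 2 lower, beside 5.19% and 3.69% of all measured genes. Of the 23, 4 had a log2 ratio above 0, and the median was -0.28. Slc7a5, a transporter of large neutral amino acids, had 4901 counts with IL-17A and 11586 with vehicle, 2.18-fold lower (interval 2.10 to 2.25). Atf4 itself was level, at 9535 and 10398 counts, a log2 ratio of -0.00 (interval -0.05 to 0.04).

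Other bZIP genes whose proteins can pair with C/EBP or compete for its sites had ratios on both sides of 0. Of 17 measured, 3 were called higher (17.6%, beside 5.19% of all measured genes) and 1 lower (beside 3.69%). The median log2 ratio was -0.00, and 8 of the 17 lay above 0. Atf3 and Atf5 belong to the ATF4 list as well. Batf, with 170 counts with IL-17A and 48 with vehicle, Fosl1, with 685 and 289, and Junb, with 4326 and 1925, are members of the AP-1 group and were 3.85-fold, 2.58-fold and 2.44-fold higher. Dbp, a circadian factor of the related PAR group, was 2.33-fold lower (interval 2.02 to 2.69).

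**Figure D4:**
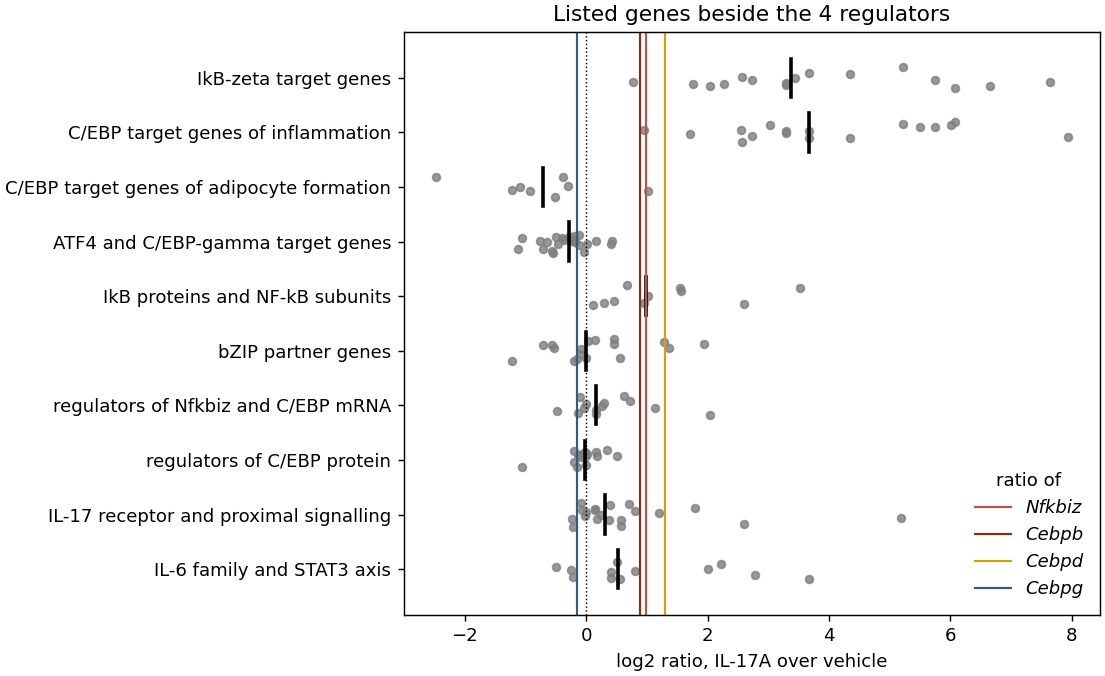
Log2 ratios of IL-17A over vehicle (x axis) for each measured gene (grey points) of 10 lists (rows), with the list median as a black bar and vertical lines at the ratios of Nfkbiz, Cebpb, Cebpd and Cebpg. The medians of both inflammatory target lists, 3.37 and 3.67, lie to the right of all 4 lines, and the adipocyte list's median of -0.71 lies to the left.

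Upstream of the regulators, the receptor genes Il17ra and Il17rc were level, at log2 ratios of -0.02 (interval -0.11 to 0.07) and -0.00 (interval -0.13 to 0.12). Of 20 measured genes in the receptor and proximal signalling list, 4 were called higher and 0 lower, beside 5.19% and 3.69% of all measured genes. The list median was 0.31. Of those called, Nfkbia was also counted among the IkB genes above. Tnfaip3, the deubiquitinase A20 that restrains NF-kB, was 36.4-fold higher (interval 30.7 to 43.5), and the kinases Ikbke and Ikbkb were 3.45-fold (interval 3.06 to 3.90) and 2.30-fold (interval 2.15 to 2.47) higher. STAT3, activated by IL-6 family cytokines, is a known inducer of Cebpb, Cebpd and Nfkbiz, and of 12 measured genes of that axis 4 were called higher and 0 lower, with a median of 0.53. Il6 had 764 counts with IL-17A and 65 with vehicle, Lif had 1365 and 215, the kinase Jak2 had 15163 and 3548, and the feedback inhibitor Socs3 had 5232 and 1413. Il6 was also counted in both inflammatory target lists above. Stat3 itself stood at a log2 ratio of 0.41 (interval 0.37 to 0.45).

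Nfkbiz mRNA is short-lived and is cut by the RNase Regnase-1, encoded by Zc3h12a. Of 13 measured regulators of these mRNAs, 2 were called higher (15.4%, beside 5.19% of all measured genes) and 0 lower (beside 3.69%). Their median log2 ratio was 0.17. Zc3h12a had 5553 counts with IL-17A and 1465 with vehicle, 4.12-fold higher (interval 3.89 to 4.37), a larger ratio than that of Nfkbiz. It is listed among the IkB-zeta targets as well. The other gene called higher was Zc3h12c, a relative of Zc3h12a, at 2.19-fold. Arid5a, also on this list, had 935 and 616 counts, a log2 ratio of 0.72 (interval 0.57 to 0.87). Both were chosen after their values were seen.

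AU-rich elements, which bind decay factors of the Zfp36 family, were counted in the 3′ untranslated regions of the GENCODE coding transcripts, a search added after the counts had been read. The pentamer ATTTA occurred 4 times in the 1355 bases of Nfkbiz, 7 times in the 2900 bases of Cebpd, 10 times in the 3962 bases of Cebpg and 0 times in the 506 bases of Cebpb. The RefSeq span of Cebpd, 2260 bases in place of 3746, ends earlier and would shorten its region. Pentamers were not counted again for that span. Among 11758 measured genes, 36.1% had 3 or more pentamers. Per kilobase, Nfkbiz had 2.95, Cebpd 2.41 and Cebpg 2.52 pentamers, beside a median of 1.28 over these genes. The nonamer TTATTTATT, present in 7.48% of these genes, was found once among the regulators, in Cebpd, and is shown in capitals within its site because Cebpd had the highest ratio.
Cebpd, AU-rich site: gttggacatTTATTTATTgtaacagaa

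C/EBP proteins are further controlled after translation, by kinases such as Gsk3b and by Tribbles proteins that direct them to degradation. Of 15 measured regulators of this kind, 0 were called higher and 1 lower, beside 5.19% and 3.69% of all measured genes. Their median log2 ratio was -0.02. The lower gene, Trib3, which the ATF4 list also holds as its other lower gene, was 2.07-fold lower (interval 1.96 to 2.19), and Trib1 was 1.42-fold higher (interval 1.26 to 1.59), within the limit.

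C/EBP-beta and C/EBP-delta are also abundant in macrophages, and IkB-zeta in keratinocytes, so markers of other cells were read beside the regulators. Leukocyte markers, 7 of 9 listed genes being in the table, summed to 267 CPM with IL-17A and 194 CPM with vehicle, of which Lyz2, a lysozyme gene with a close copy, Lyz1, made up 227 and 153 CPM. Of the 6 measured, 0 were called, but they did not move together. The myeloid integrin gene Itgam had 84 counts with IL-17A and 47 with vehicle, 1.94-fold higher (interval 1.34 to 2.84), while the macrophage gene Cd68 had 168 and 270, 1.48-fold lower (interval 1.22 to 1.80). The pan-leukocyte gene Ptprc had 88 and 87 counts, the macrophage genes Csf1r and Adgre1 had 402 and 408 and 170 and 194, and Cd3e was at 0 in both. Keratinocyte markers, 8 of 8 in the table, summed to 4.13 CPM with IL-17A and 3.28 CPM with vehicle, with Krt10 the most abundant at 27 and 28 counts and Krt1 at 0. Endothelial markers, 5 of 5 in the table, summed to 4.91 and 5.24 CPM, with Cdh5 the most abundant at 47 and 33 counts. Tek was called lower, at 18 counts with IL-17A and 49 with vehicle, 2.50-fold (interval 1.43 to 4.57), and of the unmeasured genes Kdr had 10 and 31 counts and Pecam1 had 33 and 11, so the similar sums cover genes that differed in opposite directions. How much of the regulators' levels came from other cells was not tested.

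With 2 libraries the pattern of a gene is a single ratio, and likeness was taken as the difference in log2 ratio among protein-coding genes of similar level outside the lists. Nearest to Nfkbiz among 1389 genes were Limd2 at 0.97 and Stx6 at 1.00. Nearest to Cebpb among 1182 were Src at 0.88, Adam19 at 0.89 and Ifngr2 at 0.88. Nearest to Cebpd among 1192 were C1s1 at 1.24, Elk3 at 1.23 and Foxp4 at 1.22, the nearest being 0.063 away, and C1s1 has a close copy, C1s2, which makes its count uncertain. Nearest to Cebpg among 2103 were Pacs2, Gga2 and Mettl9, each at -0.14.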

How the data were processed

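Per the labels' protocols, a PureLink kit was used for RNA and an Illumina stranded kit for mRNA libraries. STAR, featureCounts and the build mm10 are named in the submitters' processing notes; their versions, the annotation and the strand setting are not stated there. What the authors deposited is a table of raw counts, with a row for each gene symbol and 1 column per library.

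From these counts, TMM library sizes were computed with edgeR 4.0.16 in R 4.3.3, and ratios and Clopper-Pearson intervals with scipy 1.17.1. No test was run, since neither group has a second library. Lengths and coordinates came from GENCODE M21 (GRCm38), matched by symbol for 19307 of 19674 rows. The calculation was tested on simulated data. A 0 in a library allows up to 3 counts, or 0.130 CPM with IL-17A and 0.120 CPM with vehicle.

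The members and the 16 lists were chosen with earlier results of these data known. Named genes are the members, the C/EBP family, up to 4 per list whose interval lies wholly past 2-fold (otherwise the 2 farthest from a log2 ratio of 0), the top gene of each marker list by counts, the 3 nearest genes per member (1 is not reported here), and Il17ra, Il17rc, Stat3 and Atf4. Others, including Ptprc, Csf1r, Adgre1, Cd68, Cd3e, Krt1, Kdr, Pecam1 and Lep among the markers, were chosen after their values were seen, or share bases with a member. Alternatives varied the scaling, minimum, fold rule, prior count and gene length. A planned protein comparison was not made, as no protein sequences were used here.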

Additional observations from a re-analysis of the deposited data

How the results depend on the processing

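No paired analysis was possible because each group holds 1 library, and for the same reason no replicate could be left out. The direction of the 4 regulators held under each scaling and with a prior count of 2, and total-count scaling, which shifts all genes alike, put Cebpb at a log2 ratio of 0.82 in place of 0.88. Of the 4 regulators, 1 was called higher at 2-fold, 3 at 1.5-fold and 0 at 3-fold. Over all measured genes, where 702 were called higher and 500 lower, the counts were 1364 and 1117 under a 1.5-fold rule, and 340 and 219 under a 3-fold rule. Another minimum changes the set of genes. The counts were 1090 and 955 with a minimum of 10 counts and 1239 and 1115 with none, both over more genes. A minimum of 200, over fewer genes, left 275 lower. The median of the bZIP partner genes turned from -0.0049 to 0.035 with a minimum of 200 counts, and that of the keratinocyte markers, 1 measured gene, from 0.07 to -0.00029 under total-count scaling. The lengths given to genes moved the family shares. With the longest transcript Ddit3 took 14.7% with IL-17A and 31.8% with vehicle, and under the RefSeq span, a setting chosen after seeing the data, Cebpd took 35.2% and 21.3%. Among the remaining values, counted once per setting, 305 moved by less than counting error or a factor of 1.5 and 61 by more. The causes of these moves were not tested.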

Other observations

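The promoter windows of the listed target genes were read for the motifs of the regulators' partners. Of 16 C/EBP target genes of inflammation with a window in the RefSeq table, 10 (62.5%) held the C/EBP motif TTGCNNAA in at least 1 window, as did 8 of 17 IkB-zeta target genes (47.1%) and 12.2% of all 27025 genes in the table. Either kappaB motif, in the forms given above, was held by 5 of the 16 (31.2%), 6 of the 17 (35.3%) and 25.4% of all genes. Both a kappaB and a C/EBP match were held by 3 of the 16, 3 of the 17 and 2.85% of all genes. Genes with several windows have more chances of a match, the lists share genes, and the target genes were listed for being known targets, so the shares are a description.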
